A study of Homo sapiens with 16 samples.

Results

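The Ajuba and zyxin family of LIM proteins was examined in SW480, an established cell line from a human colon adenocarcinoma, in which Ajuba had been knocked down or overexpressed. The members were chosen by gene symbol, as the 7 genes AJUBA, LIMD1, WTIP, ZYX, TRIP6, LPP and FBLIM1 among the 66023 genes of the count table. All 7 were found in the GENCODE annotation of hg38, and all 7 passed the filter on low counts in each of the 6 comparisons made here. RNA was sequenced from 6 lines with 16 samples in all. Parental (n = 2) was unmodified SW480. shScrambled (n = 2) carried a lentiviral shRNA of random sequence, shAjuba1 (n = 3) a lentiviral shRNA against the coding region of Ajuba, and shAjuba2 (n = 3) one against its non-coding region. Ajuba OE (n = 3) carried a lentiviral construct with the Ajuba sequence whose name gives a CMV promoter, FLAG and HA tags and puromycin resistance, and Control (n = 3) the same construct from which the Ajuba sequence had been excised. The transduced lines were selected as stable lines with puromycin, and all 6 lines were used between passages 10 and 18. Each knockdown line was compared with shScrambled, Ajuba OE with Control, the knockdown lines with each other, and shScrambled and Control with Parental.

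LIM domains are zinc-binding protein modules that bind other proteins. Members of this family carry 3 of them at the C-terminal end, join cell junctions and focal adhesions to actin, and move between cytoplasm and nucleus. AJUBA, LIMD1 and WTIP form the Ajuba subfamily, which binds LATS kinases of the Hippo pathway, Snail proteins and alpha-catenin. ZYX (zyxin), TRIP6 and LPP form the zyxin subfamily, which recruits Ena/VASP proteins to actin, and FBLIM1 (migfilin) links filamin to kindlin at adhesions.

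The depth was 30132396 to 69684675 counted read pairs per sample. The replicates of a line differed by more than counting noise in each of the 14 pairs, by 1.87 to 14.3 times the median chi-square value that counting noise gives. The study speaks of technical replicates, so the p-values measure the spread between these samples, which may be technical. On the first principal component of all genes, replicate 2 stood apart from replicates 1 and 3 in shAjuba2 (-32.5 against -16.1 and -11.9), in Control (-6.62 against 14.3 and 7.63) and in Ajuba OE (12.1 against 30.2 and 27.9). Of the markers of colon epithelium, KRT8 and KRT18 were the highest with at least 1151.9 RPM, the count of a gene per 1000000 counted read pairs of its sample. EPCAM had at least 48.3 RPM, and KRT19, VIL1, CDX2 and HNF4A had at least 7.4 RPM. CDH1 ranged from 3.92 to 36.2 RPM. Other markers of that tissue were low, KRT20 with at most 0.641 and LGALS4 with at most 0.938 RPM. CDX1 and CEACAM5, also markers of it, were at or near 0 with at most 0.0837 RPM. The 6 fibroblast markers summed to between 6.21 and 37.6 RPM, the 6 leukocyte markers to at most 7.82 RPM and the 5 endothelial markers to at most 5.45 RPM. Among the fibroblast markers COL1A1 reached 26.4 and PDGFRB 10.8 RPM, while DCN was at or near 0. PTPRC, which defines leukocytes, had at most 0.0645 RPM. In bulk RNA, fewer cells of a kind and less RNA per cell cannot be told apart.

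To compare members with each other, RPM was divided by the merged exon length in kilobases. On this scale TRIP6 had the highest median over the 16 samples with 56.4 RPM per kb and ZYX followed with 40.7. AJUBA had 14.6, LPP 5.38, LIMD1 3.82, WTIP 2.40 and FBLIM1 2.33 RPM per kb. The merged exons include every annotated isoform and measure 26373 bases in LPP and 2553 in TRIP6, so that levels of long genes with unused exons are understated. Counts per sample ranged from 219 in FBLIM1 to 38303 in AJUBA, which gives a counting error of 0.511% to 6.76%. The error was at most 3.82% in every member other than FBLIM1.

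**Figure D1:**
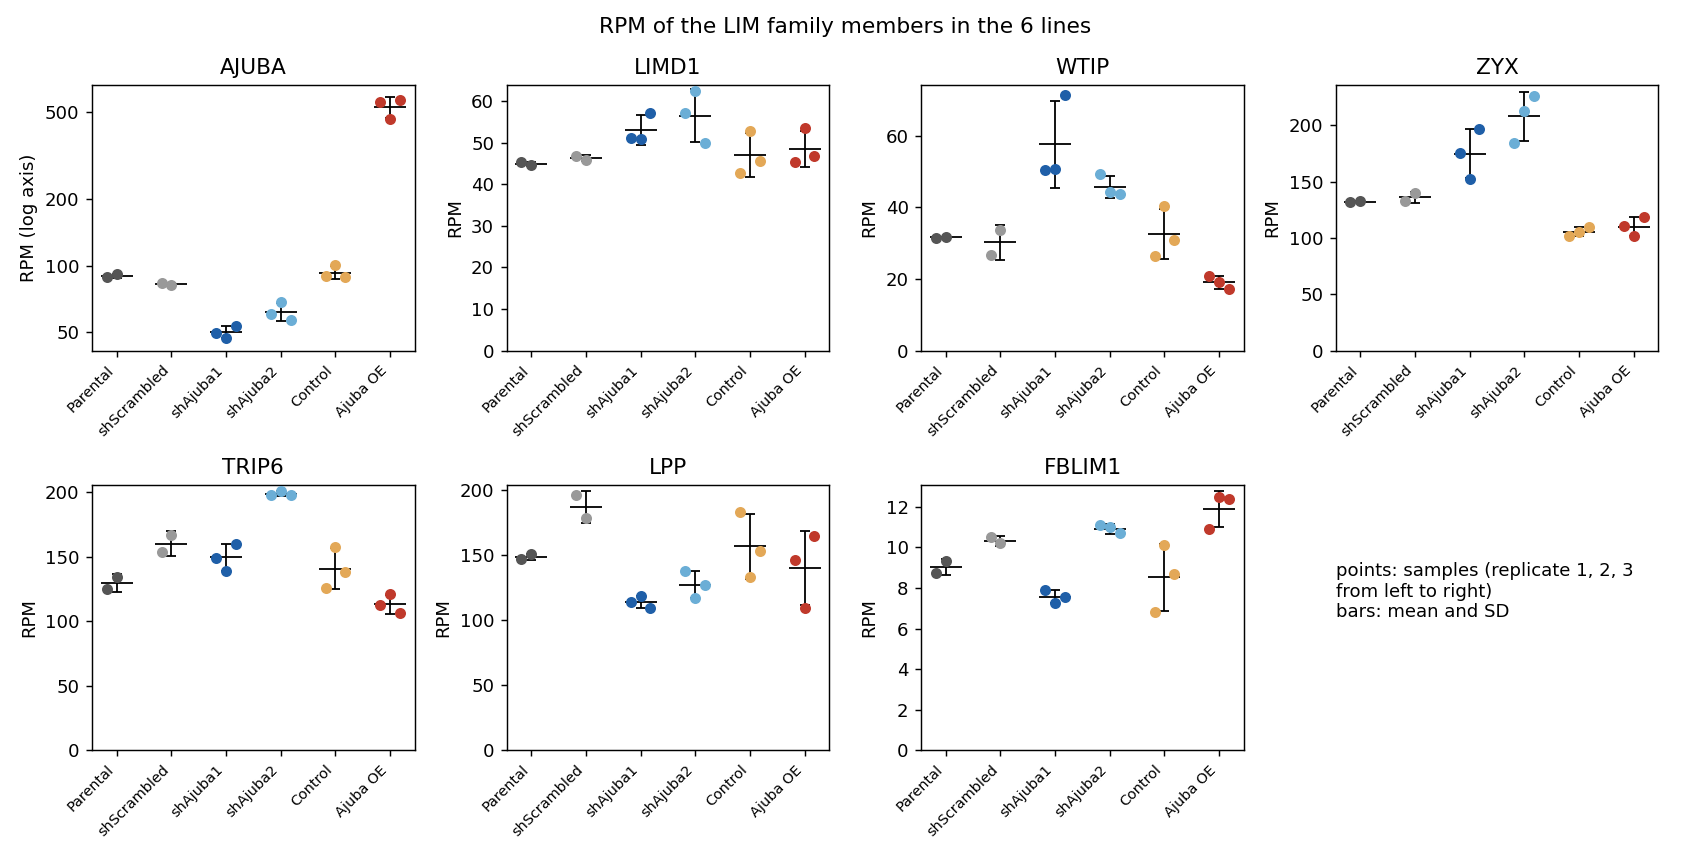
RPM of the 7 members in the 16 samples, with 1 panel for each member and the line on the horizontal axis. Points are samples and bars are the mean and SD, and the AJUBA axis is logarithmic. WTIP was highest in shAjuba1 and lowest in Ajuba OE, and ZYX was highest in shAjuba2.

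In shAjuba1 against shScrambled, 5 of the 7 members passed the threshold (adjusted p under 0.05 in edgeR's quasi-likelihood test), where 38.4% of all genes tested did. AJUBA, LPP and FBLIM1 fell and WTIP and ZYX rose. The counts of members here and below include AJUBA, the gene changed by design through the hairpins and the construct. Genes that fell made up 20.2% and genes that rose 18.2% of all genes tested. In shAjuba2 against shScrambled, LPP alone passed, and it fell, where 7.63% of all genes passed and 4.44% fell. In Ajuba OE against Control, AJUBA rose and WTIP fell, where 5.43% of all genes passed, 2.39% of them upward and 3.03% downward in shares of all genes tested. Before adjustment, p was under 0.05 for 5, 4 and 3 members in these comparisons. The share of all genes under that unadjusted threshold is not given here or below, so counts of this kind have nothing to be set beside. The sample ranges did not overlap for 6, 7 and 4 members, where they did not for 60.1%, 47.6% and 25.4% of all genes. In shAjuba1 against shAjuba2 they did not for 4 members and 39.7% of all genes, in shScrambled against Parental for 6 members and 65.2%, and in Control against Parental for 1 member and 42.4%. shAjuba1 and shAjuba2 share the shScrambled samples.

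**Figure D2:**
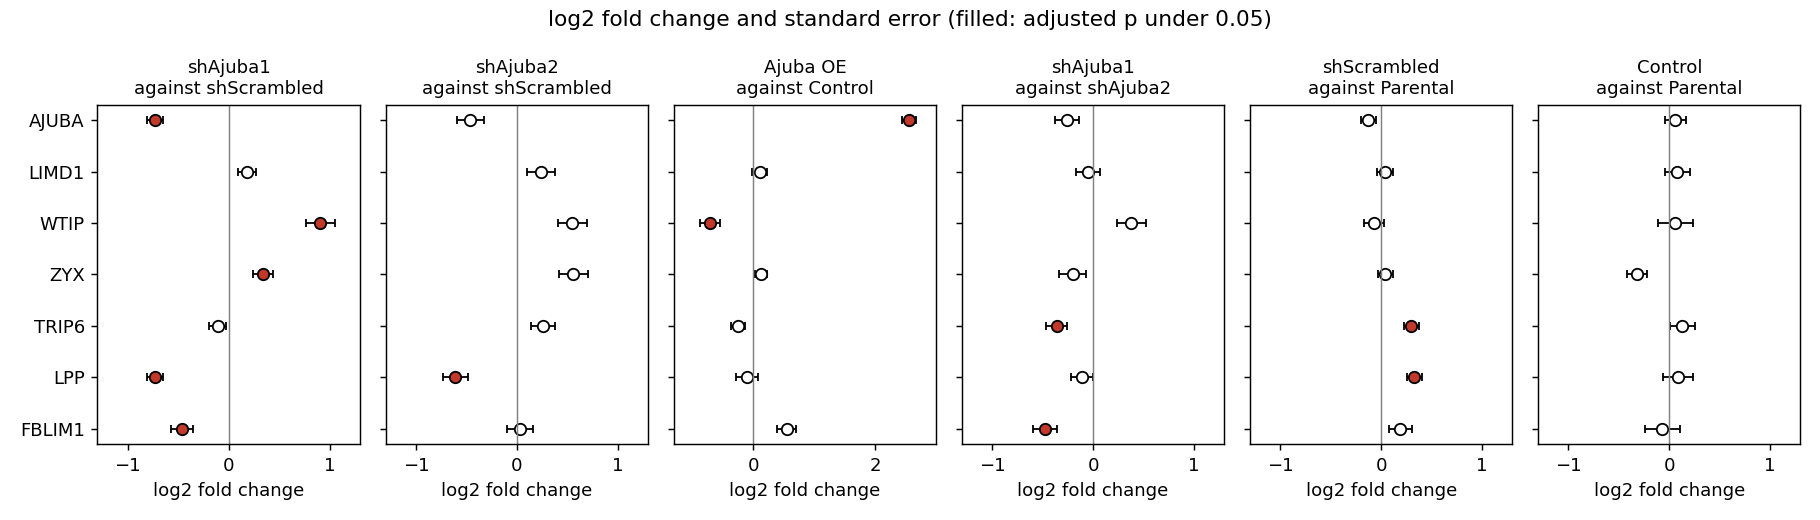
log2 fold change of the 7 members in the 6 comparisons (horizontal axis, first line over second line), with the standard error as bars. Filled points passed an adjusted p of 0.05 in edgeR's test. WTIP was positive in both knockdown comparisons, where it passed in shAjuba1, and negative in Ajuba OE, where it passed.

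AJUBA (ENSG00000129474, chr14:22971177-22982551 of hg38, minus strand, 8 exons in its canonical transcript) was the target of both hairpins and of the construct. Its RPM was 88.8 and 91.6 in Parental, 83.4 and 81.6 in shScrambled, and 89.6, 100.5 and 89.4 in replicates 1 to 3 of Control. The shAjuba1 samples had 49.6, 47.3 and 53.5 and the shAjuba2 samples 60.3, 68.6 and 57.1. Those of Ajuba OE had 549.7, 461.8 and 566.2. Every knockdown sample lay below every sample of the 3 control lines, and the ranges of shAjuba1 and shAjuba2 did not overlap either. AJUBA fell by 39.9% in shAjuba1 (log2 fold change -0.73, standard error 0.083, adjusted p = 2.19e-05 from edgeR). By RT-qPCR the study reported a larger fall for this line. For shAjuba2 it reported a fall that was smaller than for shAjuba1 and also significant, and by immunoblot less Ajuba protein in both lines. In shAjuba2 the counts gave a fall of 27.2% (log2 fold change -0.46, standard error 0.131, adjusted p = 0.0773 from edgeR), which missed the threshold, although the level was lower in all 3 samples. Without replicate 2 of shAjuba2, its highest AJUBA sample, the log2 fold change was -0.55 (adjusted p = 4.81e-04). It was -0.41 without replicate 1 (adjusted p = 0.229) and -0.38 without replicate 3 (adjusted p = 0.133). Without shScrambled replicate 1 or 2 it was -0.44 or -0.48. AJUBA passed in shAjuba2 under 4 of 12 alternatives. In Ajuba OE AJUBA was 5.90-fold higher than in Control (adjusted p = 7.69e-05), and reads of the construct and of the gene itself were not separated here. The line means spanned 10.5-fold from shAjuba1 to Ajuba OE. The difference between shAjuba1 and shAjuba2 did not pass (log2 fold change -0.26, adjusted p = 0.141).

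WTIP (ENSG00000142279, chr19:34481758-34512304, plus strand, 8 canonical exons), named as an interactor of the Wilms tumour protein WT1, was high in the lines where AJUBA was low and low where AJUBA was high. Its RPM was 50.4, 50.8 and 71.5 in shAjuba1 and 49.3, 44.2 and 43.8 in shAjuba2. It was 31.5 and 31.7 in Parental, 26.7 and 33.6 in shScrambled, and 26.5, 40.3 and 30.9 in Control. It was 20.9, 19.1 and 17.2 in Ajuba OE. All 6 knockdown samples thus lay above all 7 samples of the control lines, and all 3 Ajuba OE samples below them. The share of all genes with such an order was not counted, and the samples of a line may be technical replicates. The control lines overlapped each other, with a mean of 32.6 ± 7.06 for Control (SD, n = 3), 31.6 ± 0.117 for Parental and 30.2 ± 4.90 for shScrambled (SD, n = 2 each).

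WTIP rose 1.88-fold in shAjuba1 (log2 fold change 0.91, standard error 0.147, adjusted p = 3.64e-04 from edgeR). It passed under all 12 alternatives there, with log2 fold changes of 0.74 to 1.08. Replicate 3 held the highest level, and the log2 fold change was 0.74 without it. In shAjuba2 the log2 fold change was 0.55 (standard error 0.142, adjusted p = 0.0582), short of the threshold. It passed under 7 of 12 alternatives, among them the fit without replicate 2 of shAjuba2 (adjusted p = 0.00258) and the replicate block (log2 fold change 0.59, adjusted p = 0.0128). In Ajuba OE WTIP fell by 38.7% (log2 fold change -0.71, standard error 0.160, adjusted p = 0.0475). That call was close to the threshold and held under 8 of 14 alternatives. It was lost in 5 of the 6 fits that left out 1 sample, with adjusted p up to 0.201. Control replicate 2, which stood apart on the first component, had the highest WTIP level of its line, and without it the log2 fold change was -0.52 (adjusted p = 0.0805). Without replicate 2 of both lines it was -0.54 (adjusted p = 0.0297). By RT-qPCR, a separate measure, the study reported WTIP and LIMD1 as not altered by Ajuba knockdown. For WTIP in shAjuba1 the counts here differ from that report, and the reason was not tested.

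**Figure D3:**
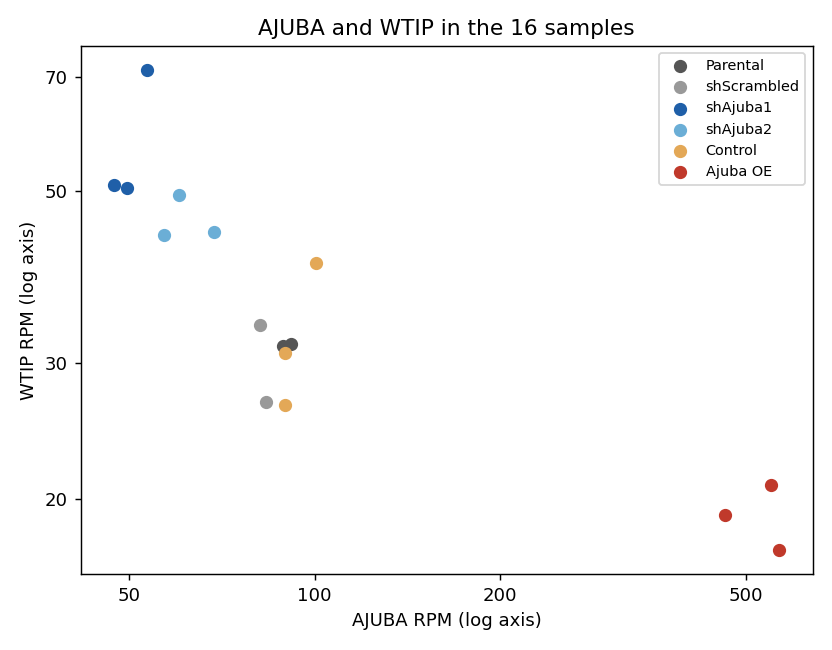
RPM of AJUBA (horizontal, log axis) and WTIP (vertical, log axis) in the 16 samples, coloured by line. The knockdown samples lie at the upper left, the Ajuba OE samples at the lower right, and the 7 samples of the control lines between them.

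Promoter sequences are shown for WTIP and ZYX, the members that rose in shAjuba1, and for TRIP6, the member with the highest level per length, to see which elements they share. They are the 250 bases before the RefSeq start (GRCh38.p14), written from 5′ to 3′ on the strand of the gene. Capitals mark GGAATG on either strand, the core bound by TEAD factors, the partners of YAP and TAZ, and TGANTCA, the element of AP-1.
WTIP, chr19:34481508-34481757, plus strand: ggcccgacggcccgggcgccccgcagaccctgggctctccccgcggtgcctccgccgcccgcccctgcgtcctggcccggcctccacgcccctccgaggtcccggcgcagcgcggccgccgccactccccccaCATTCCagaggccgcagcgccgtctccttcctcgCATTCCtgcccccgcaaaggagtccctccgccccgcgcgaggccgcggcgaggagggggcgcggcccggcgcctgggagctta
ZYX, chr7:143381095-143381344, plus strand: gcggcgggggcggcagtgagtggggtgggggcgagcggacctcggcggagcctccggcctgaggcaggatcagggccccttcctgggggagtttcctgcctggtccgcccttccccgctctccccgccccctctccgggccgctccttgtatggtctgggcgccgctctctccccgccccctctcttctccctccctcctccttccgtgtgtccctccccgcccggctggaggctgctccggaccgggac
TRIP6, chr7:100867137-100867386, plus strand: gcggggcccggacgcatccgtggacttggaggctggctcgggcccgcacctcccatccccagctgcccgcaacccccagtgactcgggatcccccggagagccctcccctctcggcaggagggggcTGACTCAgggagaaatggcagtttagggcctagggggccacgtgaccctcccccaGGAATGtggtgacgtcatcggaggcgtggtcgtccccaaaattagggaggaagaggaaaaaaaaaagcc

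GGAATG occurred 2 times in the WTIP window, starting 117 and 83 bases before the start, and 1 time in the TRIP6 window at 69 bases. TGANTCA occurred 1 time in the TRIP6 window at 124 bases. Neither occurred in the ZYX window, nor did the CArG box of SRF in any of the 3. Among the members that fell in shAjuba1, GGAATG also occurred in 1 of the AJUBA windows, at 59 bases. In LPP 1 GGAATG site lay in overlapping windows, at 44 and 228 bases from their starts. TGANTCA occurred in LPP windows at 131, 196 and 50 bases, and a CArG box in a window each of LPP (183 bases) and FBLIM1 (96 bases). AJUBA had 2 windows, LPP 7 and FBLIM1 3, as these genes have several annotated starts. Of all 35116 promoter windows of this length, 11.9% held GGAATG, 6.57% held TGANTCA and 1.16% held a CArG box. Of the 7 members 6 had a window in the RefSeq table. The motifs do not overlap each other, and a match is a description of the letters and not of binding.

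LIMD1 (ENSG00000144791, chr3:45555394-45686341, plus strand, 8 canonical exons), which binds Argonaute proteins and the prolyl hydroxylases of the HIF pathway as well as LATS kinases, varied least. Its RPM was 51.1, 50.8 and 57.1 in shAjuba1 and 57.1, 62.5 and 49.9 in shAjuba2, above 46.8 and 45.7 in shScrambled and 45.3 and 44.5 in Parental. Control had 42.7, 52.8 and 45.6 and Ajuba OE 45.3, 53.4 and 46.7, which overlapped with both knockdown lines. The log2 fold change was 0.18 in shAjuba1 (standard error 0.088, adjusted p = 0.123), 0.24 in shAjuba2 (standard error 0.139, adjusted p = 0.312) and 0.11 in Ajuba OE (standard error 0.124, adjusted p = 0.708). It passed the threshold in none of the 6 comparisons under any alternative. The highest line mean was 1.26 times the lowest. Counts of the antisense gene LIMD1-AS1, which overlaps 3150 bases of its exons, were at most 9 per sample.

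ZYX (ENSG00000159840, chr7:143381295-143391111, plus strand, 10 canonical exons), the founding member of the zyxin subfamily, was highest in the knockdown lines. Its RPM was 175.4, 152.4 and 196.4 in shAjuba1 and 184.2, 213.1 and 226.5 in shAjuba2. It was 131.9 and 132.8 in Parental and 132.9 and 139.6 in shScrambled. Control had 101.5, 105.0 and 109.7 and Ajuba OE 110.4, 101.4 and 118.6. Both overexpression lines, with and without the Ajuba sequence, thus lay below Parental and overlapped each other. ZYX rose 1.27-fold in shAjuba1 (log2 fold change 0.34, standard error 0.097, adjusted p = 0.0138 from edgeR), a call that was lost without either shScrambled sample (adjusted p = 0.115 and 0.0756). In shAjuba2 the log2 fold change was 0.56 (standard error 0.143, adjusted p = 0.0553), which missed the threshold. It passed without replicate 2 of shAjuba2 (log2 fold change 0.53, adjusted p = 0.00258) and with the replicate block (log2 fold change 0.50, adjusted p = 0.0237). In all it passed under 7 of 12 alternatives. It missed the threshold without shAjuba2 replicate 1 (log2 fold change 0.67, adjusted p = 0.0826) or 3 (0.52, adjusted p = 0.0835). Without shScrambled replicate 1 or 2 the log2 fold change was 0.53 or 0.60. In Ajuba OE it was 0.13 (adjusted p = 0.551), and in Control against Parental -0.32 (standard error 0.097, adjusted p = 0.170). EPHA1 on the other strand shares 82 exonic bases with ZYX and had up to 16.1% of its count.

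TRIP6 (ENSG00000087077, chr7:100867387-100873454, plus strand, 9 canonical exons), which binds the LPA receptor LPAR2 and the phosphatase PTPN13, separated the knockdown lines from each other. Its RPM was 197.4, 200.9 and 197.4 in shAjuba2, above every other sample. It was 149.2, 139.0 and 159.6 in shAjuba1, which overlapped with 153.2 and 166.7 in shScrambled. Parental had 124.5 and 134.5, Control 126.0, 157.6 and 137.8, and Ajuba OE 112.4, 120.7 and 106.0, the lowest of all lines. By the direct test TRIP6 was 1.29-fold higher in shAjuba2 than in shAjuba1 (log2 fold change -0.36 of shAjuba1 over shAjuba2, standard error 0.106, adjusted p = 0.0381), where 19.6% of all genes passed and 10.1% were lower in shAjuba1. That call held without shAjuba2 replicate 2 (adjusted p = 0.0136) and was lost without any other of the 6 samples, with adjusted p of 0.0528 to 0.178, and under the replicate block (adjusted p = 0.111). It was also 1.23-fold higher in shScrambled than in Parental (log2 fold change 0.30, standard error 0.078, adjusted p = 0.00530), where 30.7% of all genes passed, a call lost without Parental replicate 1 (adjusted p = 0.131) or shScrambled replicate 2 (adjusted p = 0.0785). Its log2 fold change was -0.11 in shAjuba1 (adjusted p = 0.293) and turned to 0.18 with Parental as the control. Against shScrambled, shAjuba2 had 0.26 (standard error 0.121, adjusted p = 0.215), and 0.56 with Parental as the control (adjusted p = 0.0378). In Ajuba OE it was -0.25 (standard error 0.114, adjusted p = 0.304), and -0.25 with an adjusted p of 0.0111 under the replicate block. That was the only 1 of 14 alternatives under which TRIP6 passed there.

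LPP (ENSG00000145012, chr3:188153284-188890671, plus strand, 12 canonical exons), the lipoma preferred partner that binds alpha-actinin and Ena/VASP proteins, was lowest in the knockdown lines. Its RPM was 113.9, 118.6 and 109.4 in shAjuba1 and 137.6, 116.7 and 126.8 in shAjuba2. It was 195.9 and 178.5 in shScrambled and 146.8 and 150.4 in Parental. Control had 183.1, 133.3 and 153.4 and Ajuba OE 146.1, 109.0 and 164.8, and replicate 2 was the lowest sample of both these lines. LPP fell by 39.7% in shAjuba1 (log2 fold change -0.73, standard error 0.081, adjusted p = 1.81e-05) and fell by 34.4% in shAjuba2 (log2 fold change -0.61, standard error 0.123, adjusted p = 0.0278). shScrambled itself was 1.25-fold above Parental (log2 fold change 0.33, standard error 0.077, adjusted p = 0.00242), so that the 2 members called in that comparison, LPP and TRIP6, were both higher, as 15% of all genes were. The LPP difference missed the threshold without shScrambled replicate 1 (adjusted p = 0.0549), and neither passed in the fit of all 16 samples (adjusted p = 0.308 for LPP and 0.175 for TRIP6). With Parental as the control, LPP still fell in shAjuba1 (log2 fold change -0.41, adjusted p = 0.00132) but not past the threshold in shAjuba2 (log2 fold change -0.29, adjusted p = 0.144). The call in shAjuba2 was also lost without shScrambled replicate 1 (adjusted p = 0.336) or 2 (adjusted p = 0.221) and without shAjuba2 replicate 1 (adjusted p = 0.0922) or 3 (adjusted p = 0.0558). In Ajuba OE the log2 fold change was -0.10 (standard error 0.175, adjusted p = 0.818). LPP-AS2 on the other strand shares 230 exonic bases with LPP and had at most 3.41% of its count.

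FBLIM1 (ENSG00000162458, chr1:15756607-15786594, plus strand, 9 canonical exons) had the lowest counts and also differed between the knockdown lines. Its RPM was 7.89, 7.27 and 7.54 in shAjuba1 and 11.1, 11.0 and 10.7 in shAjuba2. It was 10.5 and 10.2 in shScrambled and 8.75 and 9.31 in Parental. Control had 6.82, 10.1 and 8.67 and Ajuba OE 10.9, 12.5 and 12.4. FBLIM1 fell by 27.3% in shAjuba1 (log2 fold change -0.46, standard error 0.108, adjusted p = 0.00490), and with Parental as the control the log2 fold change was -0.28 (adjusted p = 0.0637). The fall also missed the threshold without shScrambled replicate 1 (log2 fold change -0.42, adjusted p = 0.0663). In shAjuba2 the log2 fold change was 0.03 (standard error 0.129, adjusted p = 0.893). By the direct test the level was 1.40-fold higher in shAjuba2 than in shAjuba1 (log2 fold change -0.48 of shAjuba1 over shAjuba2, standard error 0.119, adjusted p = 0.0204). That call was lost without any 1 of the 3 shAjuba1 samples or without shAjuba2 replicate 1, with adjusted p of 0.0623 to 0.0964, and held without shAjuba2 replicate 2 or 3. It was also lost under the replicate block (adjusted p = 0.0666). In Ajuba OE all 3 samples lay above the 3 Control samples, with a log2 fold change of 0.55 that missed the threshold (standard error 0.161, adjusted p = 0.110). It passed under 4 of 14 alternatives, among them the replicate block (log2 fold change 0.56, adjusted p = 0.00132) and the fit without replicate 2 of both lines (log2 fold change 0.63, adjusted p = 0.0352).

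No member passed in Control against Parental by edgeR's test, where 0.37% of all genes did. Before adjustment 1 member, ZYX, had a p under 0.05 there, and DESeq2 also called 0 members. The order of the line means differed between members. AJUBA ran from Ajuba OE over Control, Parental, shScrambled and shAjuba2 to shAjuba1, and the neighbours Control and Parental overlapped. WTIP ran from shAjuba1 over shAjuba2, Control, Parental and shScrambled to Ajuba OE, and the control lines, next to each other in that order, overlapped. In ZYX the overlapping neighbours were shAjuba2 with shAjuba1 and Ajuba OE with Control. In LPP each line overlapped with the next, from shScrambled over Control, Parental, Ajuba OE and shAjuba2 to shAjuba1.

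Per length, AJUBA, LIMD1 and WTIP together had 21.2 ± 0.307 RPM per kb in Parental (SD, n = 2) and 19.9 ± 0.0847 in the shScrambled line (SD, n = 2), and Control had 21.9 ± 1.99 (SD, n = 3). Ajuba OE reached 94.6 ± 9.19, whereas shAjuba1 had 16.9 ± 1.67 and shAjuba2 18.4 ± 1.49 (SD, n = 3 each). The AJUBA share of that sum was 72.3% in Parental and Control and 70.5% in shScrambled. Ajuba OE had a share of 94.4%, shAjuba1 one of 50.4% and shAjuba2 one of 57.4%. LIMD1 and WTIP alone summed to 8.41 ± 1.17 RPM per kb for shAjuba1 and 7.82 ± 0.576 for shAjuba2, above the 5.86 to 6.10 of the control lines, and to 5.23 ± 0.349 for Ajuba OE (SD, n = 3 each). The WTIP level was 15.0% to 15.8% of the AJUBA level in the control lines, and it was 1.59% with Ajuba OE, 49.4% with shAjuba1 and 32.1% with shAjuba2. These sums are descriptions of mRNA and were not tested. In Ajuba OE the AJUBA reads, with those of the construct, were divided by the merged exon length of the gene. The length of the construct was not used, so AJUBA levels and shares in that line may not be on the same scale.

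The zyxin subfamily made up most of the family in every line but Ajuba OE. ZYX, TRIP6 and LPP summed to 96.9 ± 3.05 RPM per kb in Parental and 111.4 ± 4.72 for shScrambled (SD, n = 2 each). They reached 116.3 ± 10.6 for shAjuba1 and 146.2 ± 6.52 for shAjuba2, and Control had 93.2 ± 5.78 (SD, n = 3 each). In Ajuba OE the sum was 83.3 ± 0.817 (SD, n = 3), below the Ajuba subfamily. AJUBA held 49.4% of the whole family there, against 6.32% in shAjuba1, 6.31% in shAjuba2 and 10.5% to 13.5% in the control lines. The share in Ajuba OE rests on the exon length of the gene, also for reads of the construct.

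**Figure D4:**
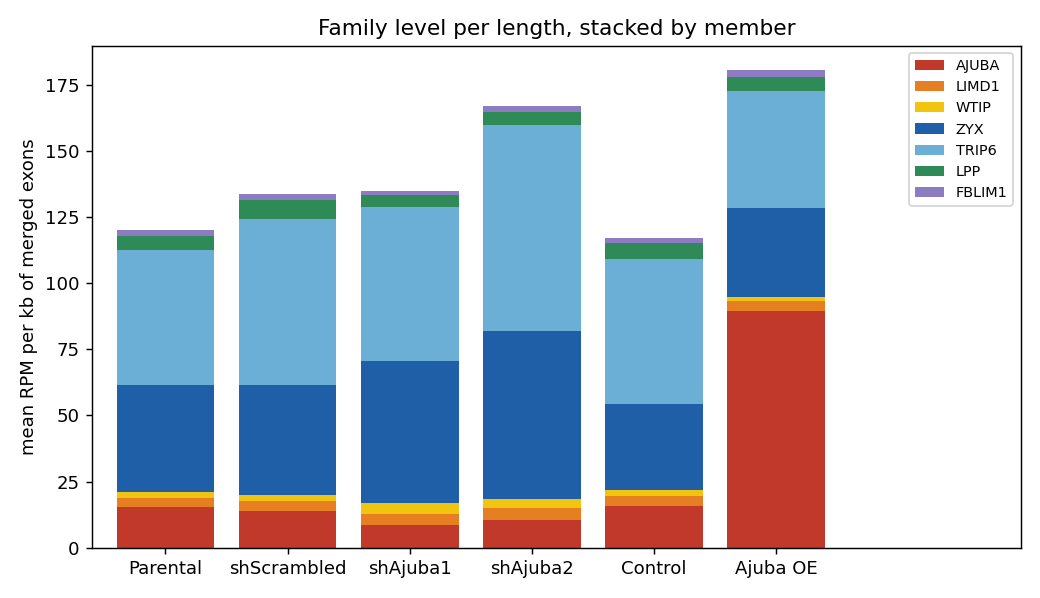
Mean RPM per kb of merged exons (vertical axis) of the 7 members in each line, stacked by member. TRIP6 and ZYX form most of each bar except in Ajuba OE, where AJUBA holds 49.4%, and the shAjuba2 bar is the tallest of the other 5 lines. In Ajuba OE reads of the construct were also divided by the exon length of the gene.

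Proteins that bind family members, or that act at the same adhesions or in the same pathways, were examined in lists chosen by hand. The lists are called partners here, but not every gene in them is a known binder. Of 18 actin and adhesion partners, shAjuba1 had 10 called, 6 of them upward, shAjuba2 had 1 and Ajuba OE had 3. These are 55.6%, 5.56% and 16.7% of the list, beside 38.4%, 7.63% and 5.43% of all genes. Their median log2 fold change in that order was 0.09, 0.16 and 0.09, beside -0.01 over all genes in each comparison. Without shScrambled replicate 1 that line had 1 sample left, and fewer genes passed in shAjuba1, both in the list and over all genes. EVL, BCAR1, PARVA and CTNNA1 were among those lost. For shAjuba2 the count was 7 without its replicate 2, where 4983 of all genes passed against 1713 with every sample. It was 0 without its replicate 1 or 3, where 492 and 1385 of all genes passed. The call did not hold without either shScrambled sample. In shAjuba1 FERMT1, a kindlin that activates integrins, rose 1.52-fold (53.7 ± 3.98 to 82.7 ± 2.29 RPM, SD, n = 2 and 3) and BCAR1, the p130Cas scaffold, and the Ena/VASP protein EVL rose 1.41-fold each. FERMT1 was lower in shScrambled than in Parental (77.2 RPM), and against Parental its log2 fold change in shAjuba1 was 0.07 (adjusted p = 0.48). TLN1 (talin 1), which ties integrins to actin, fell from 253.2 ± 5.55 to 158.8 ± 16.5 RPM (SD, n = 2 and 3), and PARVA and CTNNA1 (alpha-catenin) fell 1.27-fold each. ENAH, another Ena/VASP protein, went opposite ways in the knockdown lines. It rose in shAjuba1 (49.8 against 35.1 RPM, log2 fold change 0.49, adjusted p = 0.00104) and fell 1.51-fold in shAjuba2 (24.1 RPM, adjusted p = 0.0497), where it was the only gene of the list that passed, and the direct test between the lines gave a log2 fold change of 1.1 (adjusted p = 5.08e-04). In Ajuba OE ENAH rose 1.80-fold (29.5 ± 3.47 to 51.0 ± 5.67 RPM, SD, n = 3 each) and FERMT1 2.03-fold, whereas FLNC (filamin C) fell 2.84-fold. Against Parental the log2 fold change of ENAH in Ajuba OE was 0.46 and missed the threshold (adjusted p = 0.0638).

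Of 23 signalling and RNA partners, shAjuba1 had 9 called, 5 of them upward, and Ajuba OE had 1. These are 39.1% and 4.35% of the list, near the 38.4% and 5.43% of all genes. In shAjuba2 edgeR's test called 0, and 1, the ubiquitin ligase TRAF6, had an unadjusted p under 0.05, while DESeq2 called 0 as well. TRAF6 lies outside the naming rule and was chosen after its value was seen. The median log2 fold changes were 0.05 (shAjuba1), -0.01 (shAjuba2) and 0.09 (Ajuba OE). The count for shAjuba1 was 14 without its replicate 3, where 9695 of all genes passed against 8103 with every sample. That for shAjuba2 was 1 without its replicate 2, where 4983 of all genes passed against 1713. That for Ajuba OE was 0 without any 1 of the 6 samples, where 412 to 988 of all genes passed against 1147. In shAjuba1 the prolyl hydroxylase EGLN3 rose 1.67-fold, the arginine methyltransferase PRMT5 1.35-fold and the Argonaute AGO2 1.31-fold. SAV1, the scaffold of the Hippo kinases, fell 1.49-fold (83.4 ± 3.10 to 56.5 ± 0.653 RPM, SD, n = 2 and 3), the Hippo kinase LATS1 1.41-fold and PTPN13 1.73-fold. With Parental as the control the count for shAjuba1 was 5, where 8056 of all genes passed. SAV1 had 60.2 RPM in Parental, and against it the log2 fold change was -0.12 (adjusted p = 0.246). EGLN3 (0.19, adjusted p = 0.256), PRMT5 (0.02, adjusted p = 0.874) and PTPN13 (-0.22, adjusted p = 0.267) did not pass against Parental either, whereas AGO2 and LATS1 did. In Ajuba OE LATS2, the second LATS kinase, fell 1.36-fold (47.9 ± 1.73 to 33.8 ± 2.09 RPM, SD, n = 3 each, adjusted p = 0.0330), and it missed the threshold against Parental (log2 fold change -0.39, adjusted p = 0.062).

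Of 30 other LIM domain proteins of adhesions and actin, 29 were tested. shAjuba1 had 15 called, 10 of them downward, shAjuba2 had 5, of which 4 were downward, and Ajuba OE had 7, with 5 downward. These are 51.7%, 17.2% and 24.1% of the genes tested, beside 38.4%, 7.63% and 5.43% of all genes, of which 20.2%, 4.44% and 3.03% were downward. The median log2 fold changes were 0.06, -0.03 and 0.05 in that order. The count for shAjuba2 was 1 without its replicate 1 and 14 without its replicate 2. Of all genes 492 and 4983 passed in these fits, against 1713 with every sample. Without either shScrambled sample that line had 1 sample left, and the calls did not hold. That for Ajuba OE was 3 without replicate 3 of either line and 4 without Control replicate 1. Of all genes 412 passed without Control replicate 3, 506 without Ajuba OE replicate 3 and 593 without Control replicate 1, against 1147 with every sample. In shAjuba1 CSRP2, a muscle LIM protein of actin bundles, fell 3.98-fold (30.6 ± 3.32 to 7.76 ± 0.356 RPM, SD, n = 2 and 3), LIMCH1, which activates myosin, 3.54-fold and LIMA1 (EPLIN), which stabilises actin, 2.95-fold. LASP1, LIMK1 (the cofilin kinase) and PDLIM2 rose 1.56-fold, 1.44-fold and 1.41-fold over shScrambled. For LASP1 and LIMK1 shScrambled (587.4 and 77.4 RPM) lay below Parental (1044.7 and 109.0 RPM). Against Parental the direction of LASP1 turned (log2 fold change -0.20, adjusted p = 0.098) and LIMK1 had 0.02 (adjusted p = 0.863). PDLIM2 passed against Parental and missed the threshold without shScrambled replicate 1. In shAjuba2 LIMA1 fell 2.01-fold, the coactivator FHL2 1.98-fold and CSRP2 1.88-fold, and CRIP1 rose 2.00-fold from 1.66 ± 0.408 to 3.47 ± 0.272 RPM (SD, n = 2 and 3). Against Parental FHL2 (-0.41, adjusted p = 0.214) and CSRP2 (-0.34, adjusted p = 0.306) did not pass in shAjuba2. In Ajuba OE LIMS2 (PINCH2), a partner of integrin-linked kinase, fell 3.29-fold, ZNF185 2.19-fold and LIMCH1 2.13-fold, and PDLIM4 and FHL3 rose 1.58-fold and 1.46-fold. The FHL3 call was lost in 5 of the 6 fits without 1 sample and against Parental (log2 fold change 0.39, adjusted p = 0.098), and that of PDLIM4 in 3 of the 6.

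**Figure D5:**
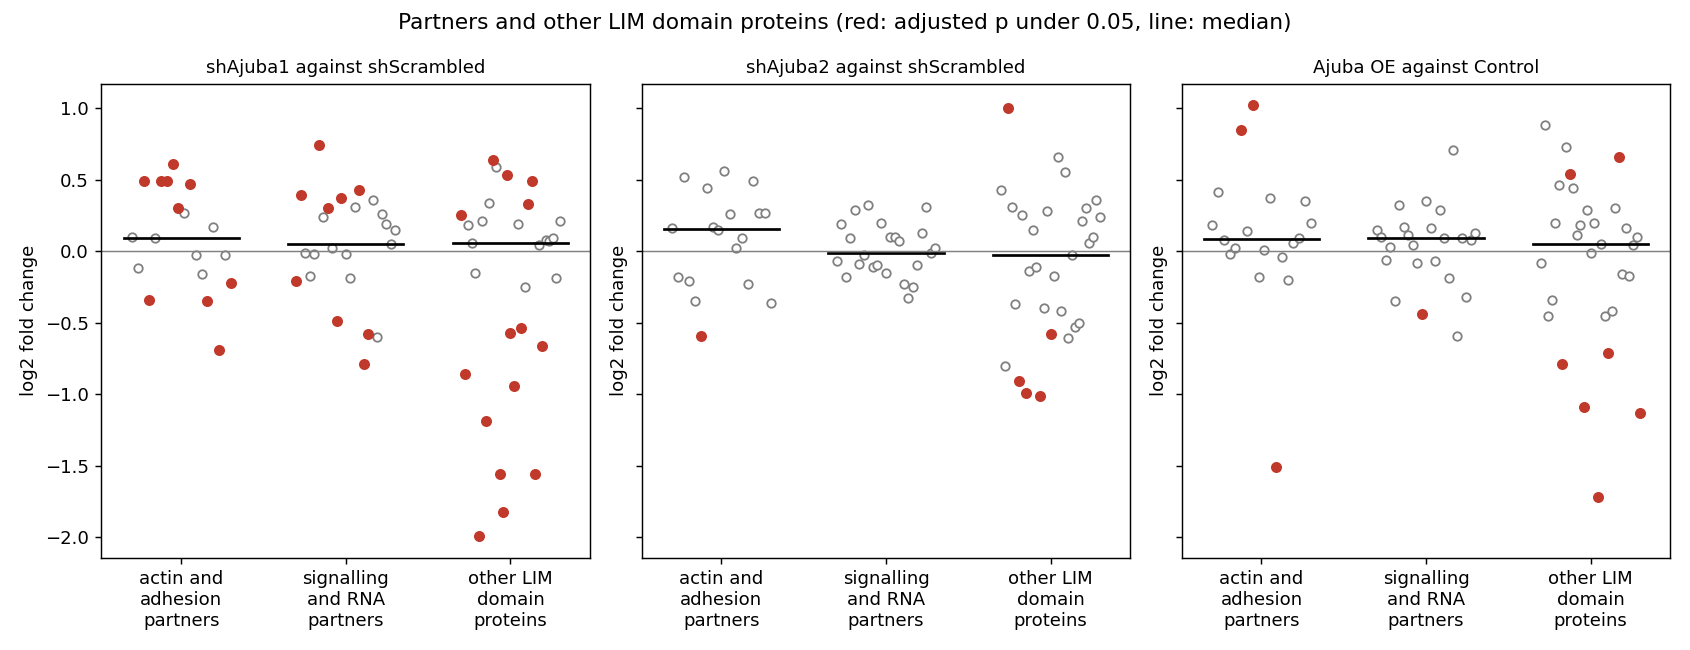
log2 fold change (vertical axis) of the genes in the 3 lists in shAjuba1 and shAjuba2 against shScrambled and in Ajuba OE against Control. Each point is a gene, red points passed an adjusted p of 0.05 in edgeR's test, and the black line is the median of the list, which lay between -0.03 and 0.16.

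Genes with a like profile were sought among 19493 named genes. The measure was the root mean square difference of centred log2 CPM over the 6 line means. CPM here is the count per 1000000 of a sample total scaled by TMM factors. For WTIP the nearest were NEK10, with a difference of 0.053, and IBA57-DT with 0.091, both at most 1.65 RPM in every line mean, where the median gene had 0.527. For LIMD1 they were KIAA0753 and QSOX2, with 0.026 each against a median of 0.262, and for TRIP6 KDM4B with 0.046 and EGLN2 with 0.047 against a median of 0.333. The nearest to ZYX were DUSP5-DT with 0.066 and PKD1P2 with 0.073, to LPP MIR6746 with 0.035 and RAVER2 with 0.045, and to FBLIM1 SMAGP with 0.064 and PHC2 with 0.083. Of these, DUSP5-DT, PKD1P2 and MIR6746 were low, with line means of at most 1.31, 0.888 and 0.378 RPM. The nearest to AJUBA were TRBC1 with 0.322 and TRBV30 with 0.35 against a median of 1.149. They were listed at 2.5 and 4.6 RPM in Ajuba OE and at 1.08 or less in each other line mean. The difference was not scaled to a member's own spread between lines. That spread, as a root mean square about its mean, was 1.136 in AJUBA and 0.102 to 0.466 in the other members. The genes named were chosen for their likeness, and the 6 points share the same libraries for all genes.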

How the data were processed

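Counts of read pairs per gene were deposited by the authors for 16 samples. Reads of 50 bases were aligned to hg38 with HISAT2 and counted with featureCounts, per the labels and the study's methods, and the strand setting and versions are not given in the sources used here. RPM was the count over the column total times 1000000. Each pair of lines was fitted on its own with edgeR 4.0.16 (R 4.3.3), with TMM factors, filterByExpr and the quasi-likelihood test, and p-values were adjusted by Benjamini-Hochberg over all genes tested with a threshold of 0.05. Fits were tested on simulated counts with 1 fixed spread and large changes only. That check does not cover small changes or the spread of these replicates. Alternatives were other scalings, DESeq2 1.42.0, a fit of all 16 samples, no filter beyond 1 count per gene, the replicate block, Parental as control and leaving out samples. Symbols, positions and merged exon lengths came from GENCODE 44. The genes named were all 7 members, per list and comparison up to 3 called genes in each direction with the largest fold change, and for each member the 2 nearest profiles (log2 CPM with a prior count of 2). The members and lists were chosen with earlier results of these data known. Totals of 30132396 to 69684675 set the counting error, and errors given cover counting or these samples only.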

Additional observations from a re-analysis of the deposited data

Results flagged for a closer look

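In 2 members the knockdown lines differed from each other by a direct test, in which 19.6% of all genes passed. TRIP6 had a log2 fold change of -0.36 in shAjuba1 over shAjuba2 (standard error 0.106, adjusted p = 0.0381 from edgeR), with means of 149.3 and 198.6 RPM, and all 3 shAjuba2 samples were higher. FBLIM1 had a log2 fold change of -0.48 (standard error 0.119, adjusted p = 0.0204), with means of 7.57 and 10.9 RPM, and again all 3 shAjuba2 samples were higher. Under the replicate block neither call held, and without 1 sample the TRIP6 call held in 1 of 6 fits and the FBLIM1 call in 2 of 6.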

How the results depend on the processing

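Of 497 values of the members under alternatives, 429 kept their direction and side of the threshold, 32 fell short of it, 24 passed it and 12 changed sign, 0 of them for a called member. The number of members called in shAjuba2 against shScrambled, 1 in the report, was 3 with library size alone, with DESeq2 and with every gene with at least 1 count, and 4 with all 16 samples or with Parental as control. Over all genes the number called there was 1713 in the report and 1751, 2482, 3210, 3672 and 1800 under these settings. In Ajuba OE against Control it was 1 with DESeq2 size factors, in shAjuba1 against shAjuba2 1 with every gene kept, and in shScrambled against Parental 0 with all 16 samples. Leaving out 1 sample gave 3 to 5 members in shAjuba1 against shScrambled (3 without shScrambled replicate 1), 0 to 4 in shAjuba2 against shScrambled (4 without shAjuba2 replicate 2), 1 to 2 in Ajuba OE against Control, 0 to 2 between the knockdown lines and 1 to 2 in shScrambled against Parental. The number over all genes moved as well, from 8103 to 4711 without shScrambled replicate 1 in shAjuba1 against shScrambled, and to between 182 and 4983 in shAjuba2 against shScrambled. The cause was not tested.

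With the replicate number as a block, 4 members were called in shAjuba2 against shScrambled, 4 in Ajuba OE against Control and 0 between the knockdown lines. Over all genes the block gave 5377, 5140 and 2937 calls in these comparisons, against 1713, 1147 and 4232 without it. Deviations of same-numbered samples correlated between -0.13 and 0.5, and not every pair exceeded 0.1, so the numbers were not taken to pair the samples. Of the 6 samples of Ajuba OE and Control 2 correlated best with their own number in the other line, and of the 6 of the knockdown lines 1 did.

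With Parental as control the sign turned for TRIP6 in shAjuba1 (0.18, log2) and ZYX in Ajuba OE (-0.21). Leaving out 1 sample, the log2 fold change ranged from -0.23 to 0.04 for LPP in Ajuba OE against Control and from -0.13 to 0.04 for LIMD1 between the knockdown lines. In shScrambled against Parental it ranged from -0.25 to 0.07 for WTIP and from -4.6e-05 to 0.06 for ZYX. In Control against Parental it ranged from -0.01 to 0.08 for AJUBA, -0.02 to 0.14 for LIMD1, -0.14 to 0.18 for WTIP, -0.04 to 0.18 for LPP and -0.22 to 0.06 for FBLIM1.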
